A study of Mus musculus with 9 samples.

Results

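The collagen genes of differentiating C2C12 myoblasts are described here: protein-coding mouse genes whose symbol is Col, a type number, the letter a and a chain number. Of 44 such genes listed in the count tables, 30 held at least 20 reads summed over the 9 libraries and were taken as members. They comprise 10 of 11 fibrillar chains, 7 of 9 basement membrane chains (type IV with types VII, XV and XVIII), 4 of 9 fibril-associated chains (FACIT), 3 of 4 transmembrane chains and 6 of 11 chains of types VI, VIII and X and their relatives. Nearest to the read minimum lay Col28a1 with 18 reads outside it, and Col13a1 and Col4a6 with 25 reads each inside it. The cartilage chain Col2a1, the kidney chains Col4a3 and Col4a4, and the type VI chains Col6a4, Col6a5 and Col6a6 were among the 14 genes under the minimum. In all, 303770 reads fell on the 30 members.

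Messenger RNA was sequenced from the mouse myoblast line C2C12, which the titles of the samples write as CSC12, in 3 genotypes: an Fkbp5 knockdown, an Fkbp4 knockdown and a control. Each was collected at day 0, when the growth medium with serum was replaced to start differentiation, and at days 3 and 5, in 9 libraries, 1 for each pairing of genotype and day. The treatment protocol names more than 1 medium after day 0, insulin-transferrin-selenium and then a serum called HS. Which applied on which day is unclear, so a day change cannot be told apart from a change of medium. The labels do not say how the genes were knocked down, what the control received, or whether libraries came from separate cultures, so a p-value here measures only the spread between these libraries. Days served in place of replicates: a knockdown difference is what days 0, 3 and 5 have in common, and a day change is what the 3 genotypes have in common.

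Total counts ranged from 3932372 to 5568486 per library. Levels are counts scaled to a common library total (CPM), and a gene with 0 reads may have reached 3 counts, or 0.539 to 0.763 CPM by library; all intervals and floors cover counting error only. Each knockdown had less of its own target mRNA, Fkbp5 3.29-fold (log2 fold change -1.72, SE 0.23, adjusted p = 0.00842) and Fkbp4 4.87-fold (log2 fold change -2.28, SE 0.12, adjusted p = 1.97e-05). Mitochondrial transcripts took 10.1% of counts in the Fkbp5 knockdown at day 5, against 1.78 to 5.01% in the other 8 libraries. All 6 myoblast and muscle markers examined (Myod1, Myf5, Des, Myog, Cdh15 and Myh3) were detected. The cartilage proteoglycan gene Acan, the fat cell genes Adipoq, Plin1 and Cfd, the endothelial gene Cdh5 and the bone gene Ibsp had 0 reads in every library. Other markers listed for these cell types were detected, among them Sox9 (cartilage) at 52.02 to 82.75 CPM and Runx2 (bone) at 23.23 to 46.02 CPM. Cd68 (immune) had 0.7258 to 3.792 CPM and Fabp4 (fat) 0 to 2.262 CPM.

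Collagens are the main structural proteins of the extracellular matrix. Each molecule is a trimer of chains wound into a triple helix, in which glycine recurs at regular intervals and many prolines are hydroxylated. Fibrillar collagens assemble into the fibrils of connective tissue, type IV collagen forms the network of basement membranes such as the one around every muscle fibre, FACIT collagens sit on fibril surfaces, and transmembrane collagens stay in the plasma membrane. Type VI collagen forms beaded microfilaments near the basement membrane of muscle, and mutations in its chains cause human muscular dystrophies. In living muscle most collagen is made by fibroblasts, but cultured myoblasts express many collagen genes as well.

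The rule used only names, so the glycine repeat was looked up in the coding sequence of each gene's longest coding transcript in GENCODE M21. All 44 listed collagens held an unbroken run of at least 20 triplets that start with a glycine codon, and 19 of 21515 other protein-coding genes did (0.0883%). The longest run had 216 to 344 triplets in the fibrillar members, 40 to 66 in the type IV members and 43 to 56 in the transmembrane members. The first 14 triplets of the longest run are shown for a fibrillar, a basement membrane and a transmembrane chain. The glycine codon that starts each triplet is in capitals. These classes are shown because every fibrillar run was longer than any run of the other members, at most 113 triplets (Col9a3).
Col1a1: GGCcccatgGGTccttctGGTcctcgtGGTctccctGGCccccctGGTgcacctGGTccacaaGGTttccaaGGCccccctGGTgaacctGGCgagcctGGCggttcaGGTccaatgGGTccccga
Col4a1: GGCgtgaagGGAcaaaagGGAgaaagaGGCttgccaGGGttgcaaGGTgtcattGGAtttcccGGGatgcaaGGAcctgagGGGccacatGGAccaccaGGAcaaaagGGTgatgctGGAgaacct
Col23a1: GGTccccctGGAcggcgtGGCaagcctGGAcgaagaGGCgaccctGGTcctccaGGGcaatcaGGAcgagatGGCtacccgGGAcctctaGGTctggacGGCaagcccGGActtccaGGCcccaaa
Despite the repeat, at most 1.12% of the 31-base words of a member's transcript (Col3a1) also occurred in a transcript of another gene. For Col3a1 the only such gene listed was Gm47302, a microRNA gene that shares 141 exonic bases with it on the same strand. Gm47302 had 0 reads. The next highest share was 0.564% (Col27a1). Exon overlap with another gene was largest for Col9a3, with 6.07% of its exonic bases on the strand opposite to Tcfl5, and reads there cannot be told apart because the library kit does not mark strand.

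Collagen mRNAs are textbook targets of the miR-29 family of microRNAs, whose 3 members share bases 2 to 8, the seed that pairs with target messages. The mature sequences are given from RefSeq (GRCm38.p6), seed in capitals.
mmu-miR-29a-3p: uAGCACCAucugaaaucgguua
mmu-miR-29b-3p: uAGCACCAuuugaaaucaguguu
mmu-miR-29c-3p: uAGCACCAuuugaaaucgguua
The 7-base match to this seed, TGGTGCT, was searched on the sense strand of the annotated 3′ UTR of the same transcripts. It was present in 17 of the 27 members with an annotated 3′ UTR and in 2408 of 20389 genes in all (11.8%). Members held 0.766 matches per kb of 3′ UTR and all genes 0.107, with median 3′ UTR lengths of 1009 and 801 bases. By class, the match was in 8 of 9 fibrillar, 6 of 6 basement membrane, 1 of 4 FACIT, 0 of 3 transmembrane and 2 of 5 other members. The first site of 5 members described below is shown, with the match in capitals and up to 15 bases before and 8 after it.
Col1a1: gtgggaaggaatttcTGGTGCTatagaagc
Col3a1: ttcaaaatgtctcaaTGGTGCTataataaa
Col4a1: gccaccgtcacaacaTGGTGCTactccccc
Col4a5: cactgctcccaccaaTGGTGCTaatatcct
Col27a1: ccactgtgaaatcgcTGGTGCTcacaattg
A match is a description of sequence; microRNA levels were not measured in these libraries.

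Promoter windows of 300 bases (250 before to 50 after the start site, RefSeq, GRCm38.p6) were matched for 25 of 30 members, with 27 windows. Both strands were searched. The CCAAT box (CCAAT) was in 10 of 27 windows and 37.4% of all promoters, the GC box (GGGCGG) in 18 of 27 and 35.7%, the TATA element (TATAAA) in 5 of 27 and 13.6%, and the E-box (CANNTG), the motif bound by myogenic factors such as MyoD, in 13 of 27 and 72.3%. Col4a1 and Col4a2, which encode the chains of the main type IV trimer, lie head to head on chromosome 8 with start sites 21 bases apart, so that the window holds both starts. The Col4a2 window is shown for that reason (chr8:11312555-11312854, GRCm38, plus strand, CCAAT and GC boxes on either strand in capitals).
Col4a2: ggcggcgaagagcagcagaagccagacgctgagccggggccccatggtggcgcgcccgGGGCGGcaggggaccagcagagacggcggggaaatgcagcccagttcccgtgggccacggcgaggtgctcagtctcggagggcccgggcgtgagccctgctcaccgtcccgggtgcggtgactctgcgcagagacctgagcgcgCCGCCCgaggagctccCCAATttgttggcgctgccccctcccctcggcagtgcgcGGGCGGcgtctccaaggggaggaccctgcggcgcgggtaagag
Col4a5 and Col4a6 form a second head-to-head pair on chromosome X, 1343 bases apart, but Col4a5 had 2422 reads over all libraries and Col4a6 had 25.

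Fibrillar chains made up most of the collagen mRNA. The 10 fibrillar members together reached, at days 0, 3 and 5, 3885, 7792 and 8134 CPM in the Fkbp5 knockdown, 2687, 5283 and 6289 CPM in the Fkbp4 knockdown and 2700, 6289 and 7543 CPM in control cells. The basement membrane members summed to 516, 948 and 875 CPM in the Fkbp5 knockdown, 477, 661 and 599 CPM in the Fkbp4 knockdown and 476, 571 and 531 CPM in control cells. In every library the fibrillar sum was the highest of the class sums, and the FACIT and transmembrane sums were the lowest. Types VI, VIII and X summed to 701, 1719 and 1589 CPM in the Fkbp5 knockdown, 531, 855 and 929.6 CPM in the Fkbp4 knockdown and 542, 1303 and 1469 CPM in control cells. FACIT chains summed to 61.5, 89.7 and 92.1 CPM in the Fkbp5 knockdown, 69.2, 26.6 and 55.1 CPM in the Fkbp4 knockdown and 79, 46.7 and 106 CPM in control cells, and transmembrane chains to 4.83, 4.13 and 3.08 CPM in the Fkbp5 knockdown, 5.6, 12.9 and 8.69 CPM in the Fkbp4 knockdown and 3.35, 13.1 and 12.1 CPM in control cells. Counted over all 30 members, collagens took 0.517, 1.05 and 1.07% of counts in the Fkbp5 knockdown, 0.377, 0.684 and 0.788% in the Fkbp4 knockdown and 0.38, 0.822 and 0.966% in control cells. In bulk RNA, fewer cells that express a gene and less of its RNA per cell cannot be told apart.

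**Figure D1:**
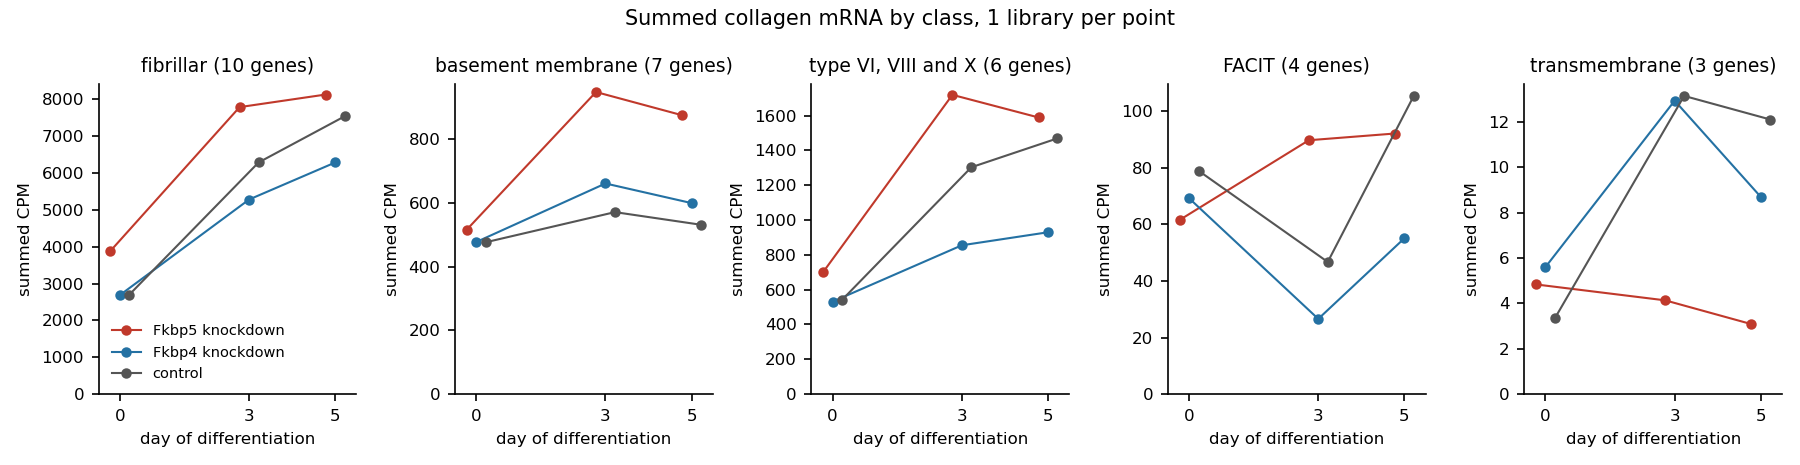
Summed CPM of the members of each class (y axis, linear from 0) by day of differentiation (x axis, points shifted sideways by genotype); each point is 1 library and lines join the libraries of a genotype. The basement membrane sum of the Fkbp5 knockdown is the highest at days 3 and 5 (948 and 875 CPM) and lies near the others at day 0 (516 CPM), and its transmembrane sum is the lowest at days 3 and 5.

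Per kb of exon, which allows levels of different genes to be compared, Col3a1 was the most abundant member with a mean of 286 CPM per kb over the 9 libraries. It was followed by Col1a1 with 90.2, Col1a2 with 87.1, Col6a1 with 74.1, Col5a1 with 64.5 and Col5a2 with 43.1 CPM per kb. The ranges of these 5 over the libraries overlapped from each to the next: Col1a1 ran between 22.9 and 171.7 CPM per kb and Col1a2 between 55.0 and 119.3. The order of this pair depends on the length used, since per kb of the longest coding transcript Col1a2 was the higher one in all 9 libraries. The highest basement membrane members were Col4a1 with 28.6, Col18a1 with 28.5 and Col4a2 with 22.2 CPM per kb. Among FACIT chains Col12a1 (3.33 CPM per kb) and Col16a1 (2.49) led, followed at a distance by Col9a3 (0.245); among transmembrane chains Col23a1 (0.671), Col17a1 (0.512) and Col13a1 (0.134) had the highest means, and their ranges of 0.0389 to 1.76, 0.305 to 0.862 and 0 to 0.46 CPM per kb overlapped, with Col17a1 above Col23a1 in each day 0 library. Col3a1, Col1a2 and Col1a1 alone held 38.1, 14.5 and 7.94% of all collagen reads.

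The fibrillar collagens were higher at the later days than at day 0. Between day 3 and day 0, 8 of 9 tested fibrillar chains were higher in the edgeR quasi-likelihood test (Benjamini-Hochberg adjusted p under 0.05 over 12844 genes), and between day 5 and day 0 all 9 were. Over all classes, 17 of 24 tested members were higher and 2 lower at day 3 than at day 0, where 26.4% of all tested genes were higher and 25.8% lower. At day 5 against day 0 the counts were 17 higher and 1 lower, with 29.3% of all tested genes higher and 28.6% lower. The low-count filter used all days together, for members and all other genes alike. Col11a2, Col24a1, Col27a1, Col8a2, Col15a1 and Col23a1 had at most 1.87 CPM at day 0 and passed it through their later libraries. Their part in these counts is therefore not independent of the filter. The median log2 fold change of the members was 0.94 at day 3 and 1.50 at day 5 against day 0; for all tested genes it was 0.00 and 0.01. Cell markers moved over the same days: at day 3 against day 0, 4 of 5 tested fibroblast markers were higher and 1 lower, and 6 of 6 myoblast and muscle markers were higher. Their part in the collagen changes was not tested.

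Col3a1, the chain of type III collagen, had 1757, 3714 and 4011 CPM in the Fkbp5 knockdown, 1214, 2983 and 3205 CPM in the Fkbp4 knockdown and 1164, 3444 and 3785 CPM in control cells at days 0, 3 and 5. Every genotype was lowest at day 0, with no overlap between day 0 and the later days. At day 5 it was 2.75-fold higher than at day 0 (log2 fold change 1.46, SE 0.12, adjusted p = 4.11e-06). Col1a1, the major chain of type I collagen, had 369.5, 1127 and 1054 CPM in the Fkbp5 knockdown, 150.1, 366 and 651 CPM in the Fkbp4 knockdown and 166, 569 and 878 CPM in control cells. Its day 0 values all lay below its later ones within a genotype, and the change at day 5 was 4.14-fold (log2 fold change 2.05, SE 0.17, adjusted p = 3.07e-06). Col1a2, the partner chain, had 1122, 1482 and 1438 CPM in the Fkbp5 knockdown, 684, 895 and 973 CPM in the Fkbp4 knockdown and 741, 1121 and 1280 CPM in control cells. It rose in each genotype but by less, 1.5-fold at day 5 (log2 fold change 0.58, SE 0.11, adjusted p = 0.000927), and its Fkbp5 knockdown value at day 0 was as high as the control at day 3.

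The type V chains, minor partners that set fibril diameter, were lowest at day 0 in each genotype. Col5a1 had 284, 735 and 787 CPM in the Fkbp5 knockdown, 265, 500.3 and 731 CPM in the Fkbp4 knockdown and 257, 582 and 788 CPM in control cells, 2.93-fold higher at day 5 than at day 0 (log2 fold change 1.55, SE 0.11, adjusted p = 9.3e-07). Col5a3 had 68.7, 240.1 and 217 CPM in the Fkbp5 knockdown, 76.7, 170.4 and 229 CPM in the Fkbp4 knockdown and 63.4, 203 and 214 CPM in control cells, 3.23-fold higher at day 5 (log2 fold change 1.69, SE 0.12, adjusted p = 1.17e-06). Col5a2 had 280.0, 469.6 and 594 CPM in the Fkbp5 knockdown, 294, 356 and 478 CPM in the Fkbp4 knockdown and 306, 358 and 584 CPM in control cells, and it was 1 of the 3 members that were also higher at day 5 than at day 3 (log2 fold change 0.52, SE 0.11, adjusted p = 0.0225). Of the low fibrillar chains, 3 passed the test and Col11a1 was not tested. Col27a1, a chain of a fibrillar type found in developing cartilage, was 7.71-fold higher at day 3 than at day 0 (log2 fold change 2.95, SE 0.30, adjusted p = 1.97e-05). Col24a1, known from developing bone, had 1.53, 4.36 and 5.76 CPM in the Fkbp5 knockdown, 0.207, 2.33 and 5.72 CPM in the Fkbp4 knockdown and 0.669, 2.11 and 2.66 CPM in control cells and was 6.16-fold higher at day 5 than at day 0 (log2 fold change 2.62, SE 0.47, adjusted p = 0.000731). Col11a2, a type XI chain of cartilage, had 1.27, 1.38 and 4.32 CPM in the Fkbp5 knockdown, 1.87, 2.87 and 9.32 CPM in the Fkbp4 knockdown and 0.446, 1.64 and 5.08 CPM in control cells; it was not past the threshold at day 3 and was 5.32-fold higher at day 5 than at day 0 (log2 fold change 2.41, SE 0.35, adjusted p = 0.000188).

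Of 6 tested basement membrane chains, 5 were higher and 1 lower at day 3 than at day 0, and 3 (Col4a1, Col4a5 and Col15a1) were higher at day 5 than at day 0. Col4a5, a chain of another type IV trimer, had 32.8, 92.7 and 102 CPM in the Fkbp5 knockdown, 17.2, 65.9 and 55.5 CPM in the Fkbp4 knockdown and 18.1, 70.4 and 72.1 CPM in control cells. The lowest later value of any genotype was above the highest value at day 0, and it was 3.44-fold higher at day 3 (log2 fold change 1.78, SE 0.13, adjusted p = 2.03e-06). Col15a1, a proteoglycan collagen that anchors muscle basement membranes, had 0, 10 and 12 reads in the Fkbp5 knockdown, 0, 22 and 3 reads in the Fkbp4 knockdown and 0, 36 and 17 reads in control cells. It had 0 reads in all 3 day 0 libraries, and it was higher at day 3 in the fit (adjusted p = 0.000407). The exact 95% interval of the log2 ratio of day 3 to day 0 began at 1.02 in the Fkbp5 knockdown, 2.25 in the Fkbp4 knockdown and 3.29 in control cells, for counting error only. Col4a1 and Col4a2 were 1.48-fold and 1.31-fold higher at day 3 than at day 0 (adjusted p = 0.0296 and 0.0475), although the control values of both genes moved little over the 3 days. Col18a1, the source of the fragment endostatin, was 1.24-fold higher at day 3 (adjusted p = 0.0449). Col7a1, the chain of anchoring fibrils, was lower at day 3, at 7.63, 4.13 and 5.76 CPM in the Fkbp5 knockdown, 7.88, 5.57 and 11.4 CPM in the Fkbp4 knockdown and 8.7, 3.52 and 4.36 CPM in control cells (log2 fold change -0.90, SE 0.30, adjusted p = 0.0268), and did not pass the threshold at day 5 against day 0.

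Among the remaining classes, the chains of type VI collagen changed unequally. Col6a2 was 5.29-fold higher at day 3 than at day 0 (log2 fold change 2.40, SE 0.14, adjusted p = 4.22e-07) and Col6a1 was 2.92-fold higher (log2 fold change 1.54, SE 0.12, adjusted p = 1.99e-06). Col6a3, the largest chain of the trimer, was 1.37-fold higher at day 3 (log2 fold change 0.45, SE 0.17, adjusted p = 0.0472) and did not pass the threshold at day 5 (log2 fold change 0.28, SE 0.17, adjusted p = 0.187). It did not rise in every genotype. In the Fkbp4 knockdown, single libraries gave Col6a3 log2 changes from day 0 of -0.105 at day 3 and -0.237 at day 5. Col8a1, a short-chain network collagen, was not past the threshold at day 3 and was 2.09-fold higher at day 5 than at day 3 (log2 fold change 1.06, SE 0.20, adjusted p = 0.0136). Its partner Col8a2 had 0, 5 and 12 reads in the Fkbp5 knockdown, 1, 0 and 2 reads in the Fkbp4 knockdown and 1, 1 and 14 reads in control cells, and passed the threshold at day 5 against day 0 (adjusted p = 0.00645) from a base of at most 1 read per library at day 0. Col8a2 passed the low-count filter through day 5 of the Fkbp5 knockdown (2.47 CPM) and of control cells (3.39 CPM). Its call at day 5 is therefore not independent of the filter. Col16a1, a FACIT chain, was the member that fell at both later days, 1.53-fold at day 3 (log2 fold change -0.62, SE 0.17, adjusted p = 0.0123) and 1.73-fold at day 5 (log2 fold change -0.79, SE 0.18, adjusted p = 0.00305). Col12a1, the FACIT chain found on type I fibrils, had 27.2, 66.8 and 74.4 CPM in the Fkbp5 knockdown, 49.8, 14.9 and 41.3 CPM in the Fkbp4 knockdown and 61.3, 29.8 and 91.2 CPM in control cells, with no day change past the threshold. Col23a1, a transmembrane chain, was 17.9-fold higher at day 3 than at day 0 (log2 fold change 4.16, SE 0.51, adjusted p = 6.72e-05) from 1 or 2 reads per library at day 0. Col17a1, a hemidesmosome chain, did not pass the threshold in any comparison, with 1.84 to 5.18 CPM over the 9 libraries.

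Between day 5 and day 3, 3 of 24 members were higher (Col11a2, Col5a2 and Col8a1) and 0 lower, where 3.77% of all tested genes were higher and 2.39% lower. At an unadjusted p under 0.05 the members numbered 9, a cut for which the share of all tested genes is not given here. Leaving out 1 library at a time gave 0 to 5 called members. There were 0 without the Fkbp4 knockdown of day 3, the control of day 3 or the control of day 5, and 1 without the Fkbp4 knockdown of day 5. The same leave-outs gave 14 to 19 for day 3 and 16 to 20 for day 5 against day 0.

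**Figure D2:**
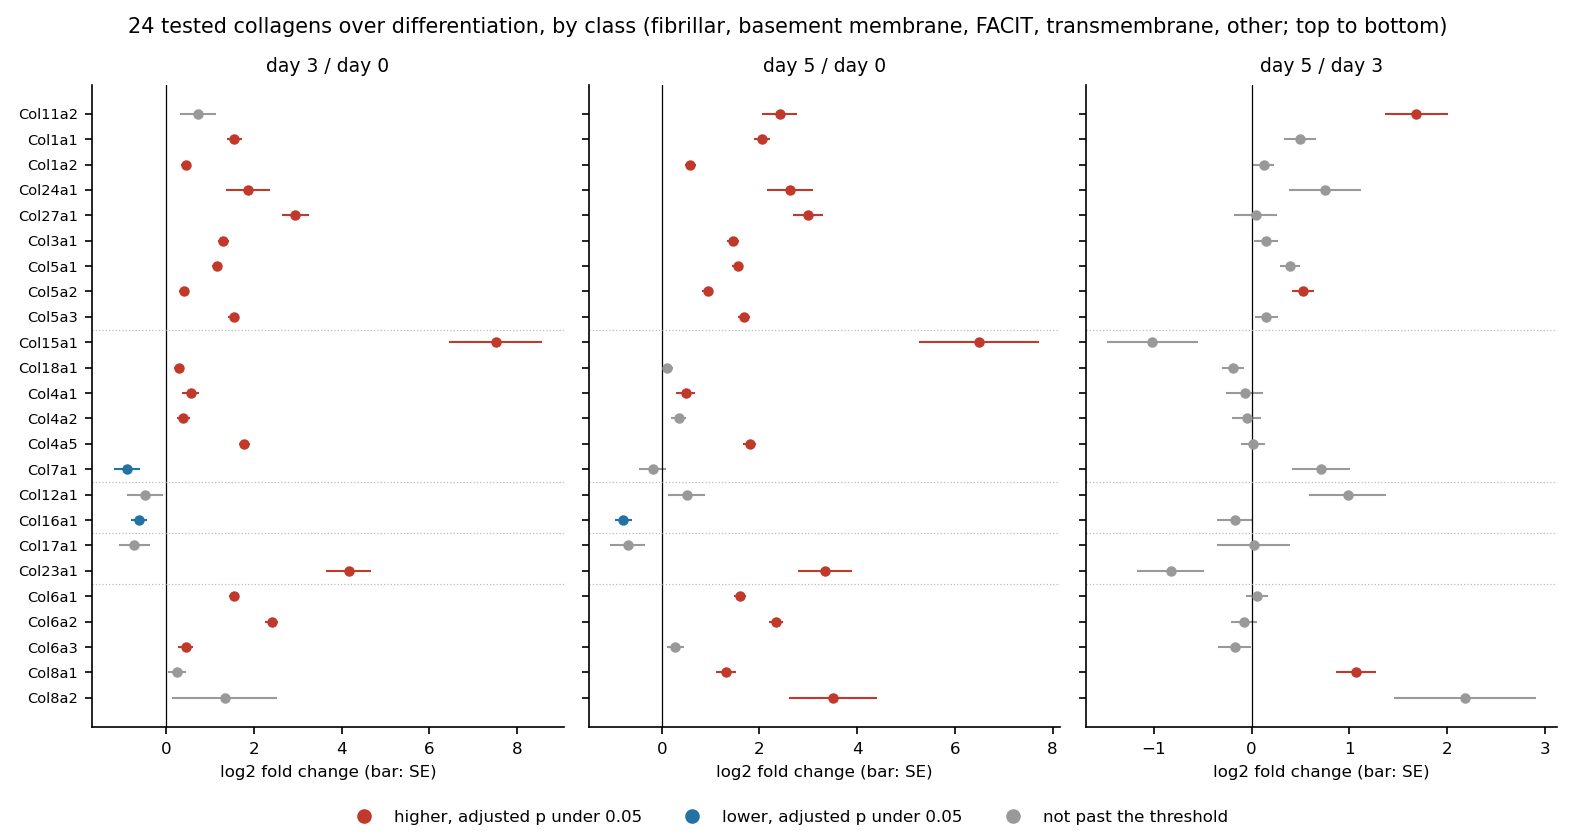
Log2 fold change (x axis, a separate scale in each panel) of the 24 tested members by gene (y axis), from the edgeR fit over 9 libraries; bars are SE and colour marks calls at an adjusted p under 0.05. All 9 fibrillar chains are higher at day 5 than at day 0, and the value of Col15a1, with 0 reads at day 0, depends on the fit and is no measure of size.

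The Fkbp5 knockdown had more mRNA of several fibrillar and basement membrane collagens than the control. Of 24 tested members 5 were higher, Col1a1, Col27a1, Col4a2, Col4a5 and Col18a1, and Col23a1 was lower. The background was 0.685% of all tested genes higher and 1.40% lower. Among all members, 22 of 24 had a positive log2 fold change, with a median of 0.25 against 0.00 for all tested genes. In CPM, 12 of 24 members were higher than the control on each of the 3 days, which held for 14.1% of all tested genes. The count of calls depended on single libraries, and the share of all genes called in each such fit is not given here. Without the control library of day 3, or without that of day 5, 0 of 24 members were called; without the Fkbp5 knockdown of day 5, the library rich in mitochondrial transcripts, 1 was called (Col1a1). Without the Fkbp5 knockdown of day 3 the calls were Col27a1 and Col4a5, without the control of day 0, the Fkbp4 knockdown of day 3 or that of day 5 there were 3, and scaling by library totals alone also left 3. Of 21 alternatives, 15 kept Col27a1 past the threshold, 13 Col1a1, 10 each Col4a2 and Col23a1, 9 Col4a5 and 8 Col18a1. At an unadjusted p under 0.05 there were 14 members, a cut for which the share of all tested genes is not given here.

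Same-day ratios to the control, each between 2 single libraries, are given with exact 95% intervals for the 2 counts, which cover counting error only. They describe the libraries and do not test a change over days. For Col1a1 the log2 ratio of the Fkbp5 knockdown to the control was 1.15 (1.02 to 1.28) at day 0, 0.98 (0.92 to 1.06) at day 3 and 0.26 (0.20 to 0.33) at day 5. All 3 ratios were above 0, and the interaction with day was not past the threshold (log2 fold change -0.54, SE 0.34, adjusted p = 0.962). For Col4a2, which had 126, 232 and 226 CPM in the Fkbp5 knockdown, 118, 144 and 123 CPM in the Fkbp4 knockdown and 115, 120.4 and 119 CPM in control cells, it was 0.13 (-0.05 to 0.31), 0.94 (0.79 to 1.10) and 0.93 (0.77 to 1.08). Its divergent partner Col4a1 had 148, 360.4 and 336 CPM in the Fkbp5 knockdown, 151, 192 and 166 CPM in the Fkbp4 knockdown and 177, 196 and 193 CPM in control cells, with ratios to the control of -0.25 (-0.41 to -0.09), 0.88 (0.76 to 1.00) and 0.80 (0.68 to 0.92). In these libraries both genes of the pair were near or below the control at day 0 and above it at the later days, with interaction adjusted p = 0.417 for Col4a1 and 0.962 for Col4a2. Col4a1 did not pass the threshold over the 3 days together (log2 fold change 0.55, SE 0.19, adjusted p = 0.187).

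Col27a1 had 1.78, 17.2 and 21.2 CPM in the Fkbp5 knockdown, 1.04, 7.36 and 6.36 CPM in the Fkbp4 knockdown and 1.11, 7.04 and 5.81 CPM in control cells. The Fkbp5 knockdown values at days 3 and 5 exceed every other library, and they rest on 75 and 103 reads against 30 and 24 in control cells. Col4a5 was 1.51-fold higher over the 3 days (log2 fold change 0.60, SE 0.13, adjusted p = 0.0392), and each Fkbp5 knockdown library was above both other genotypes of its day. Col18a1 had 201, 256 and 201 CPM in the Fkbp5 knockdown, 183, 249 and 242 CPM in the Fkbp4 knockdown and 157, 172 and 139 CPM in control cells, and it stood above the control in both knockdowns; its log2 fold change against the control was 0.53 in the Fkbp5 knockdown (adjusted p = 0.0456) and 0.50 in the Fkbp4 knockdown (adjusted p = 0.0718). Those comparisons share the control libraries. Col23a1 had 2, 10 and 4 reads in the Fkbp5 knockdown, 2, 49 and 21 reads in the Fkbp4 knockdown and 1, 43 and 29 reads in control cells; its reads rose at days 3 and 5 in the Fkbp4 knockdown and the control, while the Fkbp5 knockdown had 10 and 4 reads, and at day 0 no genotype had more than 2.

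In the Fkbp4 knockdown no member passed the threshold against the control. The edgeR test called 0 of 24, where 0.265% of all tested genes were higher and 0.825% lower. DESeq2 called 4 members and limma voom 0, and 9 had an unadjusted p under 0.05 in edgeR. For these other counts the share of all tested genes is not given here. The log2 fold change was negative in 16 of 24 members, with a median of -0.20 against 0.02 for all tested genes. In CPM, 10 of 24 members lay below the control on each of the 3 days, which held for 18.3% of all tested genes. Col8a1 had 129.9, 198 and 348 CPM in the Fkbp5 knockdown, 76.7, 59.8 and 109 CPM in the Fkbp4 knockdown and 79, 115 and 294 CPM in control cells, with same-day log2 ratios of the Fkbp4 knockdown to the control of -0.04 (-0.26 to 0.17), -0.94 (-1.15 to -0.74) and -1.43 (-1.58 to -1.28). Over the 3 days it was not past the threshold (log2 fold change -0.84, SE 0.21, adjusted p = 0.0891), nor was the interaction with day (adjusted p = 0.807). Col6a1 and Col6a2 had log2 fold changes of -0.44 and -0.59 with adjusted p = 0.0987 and 0.0718, and Col1a1 and Col1a2 of -0.43 and -0.31 with adjusted p = 0.232 and 0.205. All 5 tested members of types VI and VIII were negative.

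The direct comparison of the knockdowns gave the most calls of the 3 genotype comparisons. The control libraries entered it only through the joint fit, that is the filter, the scaling, the day terms and the spread. Of 24 members, 12 were higher in the Fkbp5 knockdown than in the Fkbp4 knockdown and 1 was lower, where 6.83% of all tested genes were higher and 6.02% lower. The members' median log2 fold change was 0.66, against -0.01 for all tested genes, and 13 of 24 were higher in CPM on each of the 3 days, which held for 18.5% of all tested genes. By class, 4 of 9 fibrillar, 3 of 6 basement membrane, 1 of 2 FACIT and 4 of 5 type VI and VIII members were higher, and Col23a1, of the 2 transmembrane members tested, was lower (log2 fold change -1.84, SE 0.45, adjusted p = 0.0254).

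Type I collagen differed in both chains, Col1a1 by 2.43-fold (log2 fold change 1.28, SE 0.17, adjusted p = 0.00165) and Col1a2 by 1.67-fold (log2 fold change 0.74, SE 0.11, adjusted p = 0.00294). Each Fkbp5 knockdown library exceeded the Fkbp4 knockdown library of its day for both genes. Type III collagen, Col3a1, differed by 1.38-fold (log2 fold change 0.46, SE 0.12, adjusted p = 0.0339) and Col27a1 by 2.75-fold (log2 fold change 1.46, SE 0.24, adjusted p = 0.00496). Among basement membrane chains, Col4a1, Col4a2 and Col4a5 were 1.67-fold, 1.56-fold and 1.76-fold higher (adjusted p = 0.0306, 0.021 and 0.00365), while Col18a1 had a log2 fold change of 0.03 (SE 0.11). Type VI chains had 164, 488 and 434 CPM in the Fkbp5 knockdown, 122, 299 and 345 CPM in the Fkbp4 knockdown and 135, 462 and 473 CPM in control cells for Col6a1. Col6a2 had 79.3, 354 and 282 CPM in the Fkbp5 knockdown, 41.2, 226 and 228 CPM in the Fkbp4 knockdown and 55.8, 351 and 345 CPM in control cells, and Col6a3 had 328, 678 and 520.5 CPM in the Fkbp5 knockdown, 291, 270.3 and 247 CPM in the Fkbp4 knockdown and 272, 374 and 351 CPM in control cells. All of them were higher in the Fkbp5 knockdown than in the Fkbp4 knockdown on each day, by 1.47-fold, 1.61-fold and 1.9-fold over the 3 days (adjusted p = 0.0121, 0.0105 and 0.00832). Col8a1 differed by 2.71-fold (log2 fold change 1.44, SE 0.21, adjusted p = 0.00272), and Col16a1, at 33.8, 19.7 and 16 CPM in the Fkbp5 knockdown, 18.2, 9.88 and 9.96 CPM in the Fkbp4 knockdown and 16.5, 15 and 12.1 CPM in control cells, by 1.91-fold (log2 fold change 0.93, SE 0.17, adjusted p = 0.00863). Leaving out 1 library at a time gave 6 to 13 calls: 6 without the Fkbp4 knockdown of day 5, 7 without the Fkbp5 knockdown of day 5 and 8 without the Fkbp4 knockdown of day 3. Col23a1, Col3a1, Col4a1 and Col4a2 missed the threshold in all 3 of these fits, Col27a1 and Col6a3 in those without a day 5 library, and Col6a1 in those without an Fkbp4 knockdown library. Without the Fkbp5 knockdown of day 3, Col23a1, Col4a1 and Col4a2 missed it, and Col3a1 also missed it without either knockdown library of day 0, the control of day 3 or that of day 5. Without day 3 there were 6 and without day 5 there were 4. Col1a1, Col1a2 and Col8a1 stayed past the threshold in each alternative with a day term, the 9 fits without 1 library included. A model with no day term called 0 members in any genotype comparison.

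Markers of other cells moved with the same comparison. The 6 fibroblast markers (Pdgfra, Dpt, Pi16, Dcn, Lum and Thy1) summed to 43.2, 602 and 834 CPM in the Fkbp5 knockdown, 26.3, 319 and 393 CPM in the Fkbp4 knockdown and 23.9, 576 and 718 CPM in control cells at days 0, 3 and 5. Most of each sum at days 3 and 5 was Dcn alone. It had 544 and 745 CPM in the Fkbp5 knockdown, 302 and 344 CPM in the Fkbp4 knockdown and 521 and 623 CPM in control cells. Of the 5 tested, 3 (Dpt, Pi16 and Dcn) were higher in the Fkbp5 than in the Fkbp4 knockdown, beside 6.83% of all tested genes, and 0 were called in either knockdown against the control, with median log2 fold changes of 0.37 in the Fkbp5 knockdown and -0.68 in the Fkbp4 knockdown. Thy1 had 1 read in 1 library. The 6 muscle markers summed to 1338, 4664 and 6191 CPM in the Fkbp5 knockdown, 1417, 6171 and 8578 CPM in the Fkbp4 knockdown and 1411, 4981 and 7944 CPM in control cells. Of these, 2 markers, Cdh15 (-0.36) and Myh3 (-1.36), were lower in the Fkbp5 than in the Fkbp4 knockdown, beside 6.02% of all tested genes. The tendon factor Scx was higher there (0.36), and its list companions Mkx and Tnmd had at most 0.892 CPM. The chondrocyte, osteoblast, adipocyte and endothelial and immune lists had no called gene in a genotype comparison. The part of these markers in the collagen differences was not tested.

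**Figure D3:**
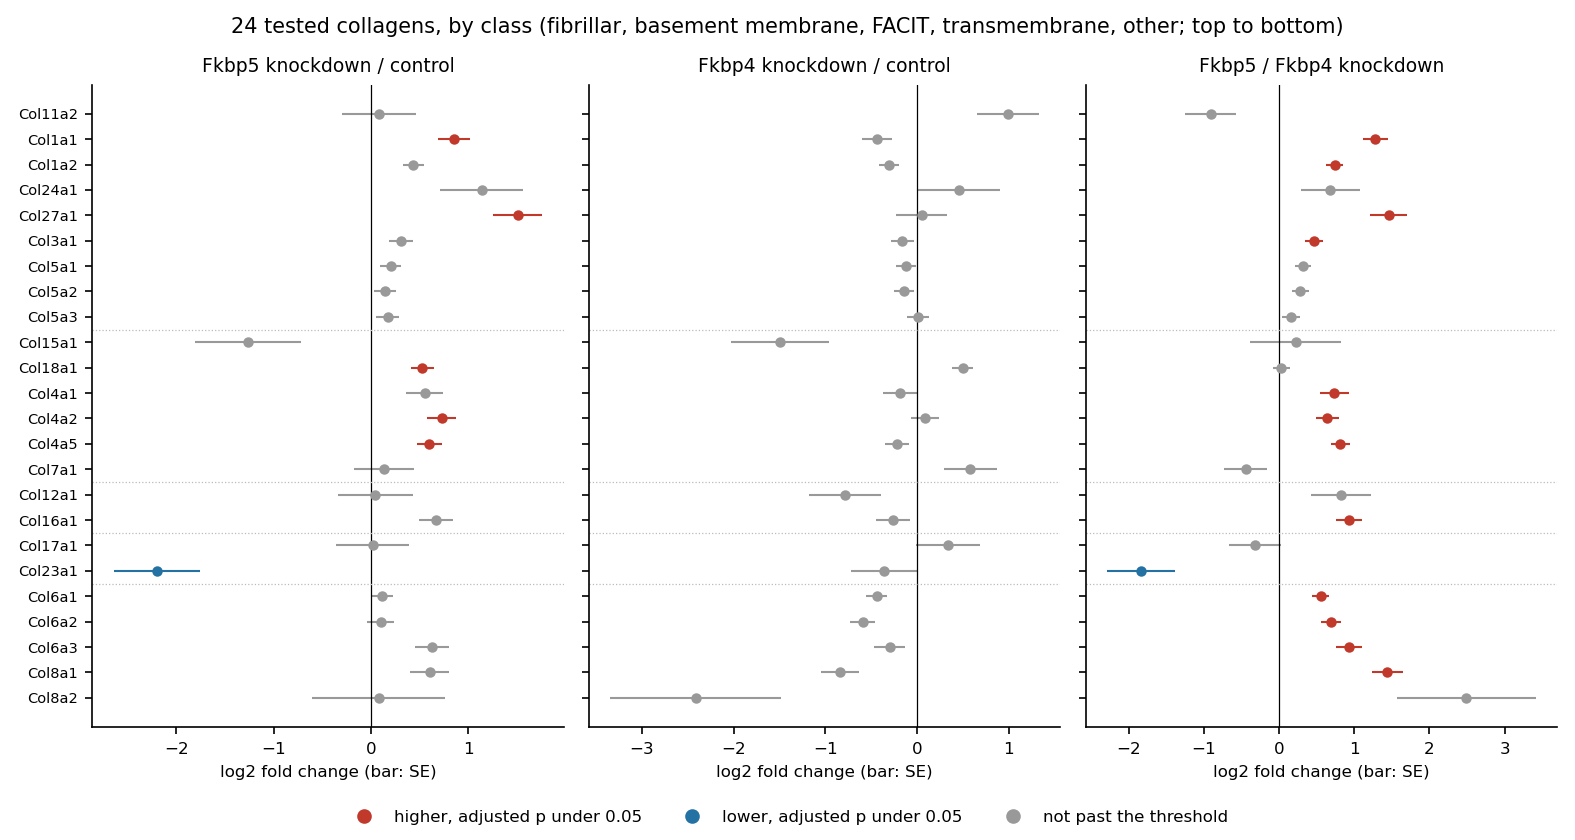
Log2 fold change (x axis, a separate scale in each panel) of the 24 tested members by gene and class (y axis) in the 3 genotype comparisons, from the edgeR fit over 9 libraries; bars are SE and colour marks calls at an adjusted p under 0.05. Most members lie right of 0 for the Fkbp5 knockdown against the control (5 called higher, 1 lower) and against the Fkbp4 knockdown (12 higher, 1 lower), and none is called for the Fkbp4 knockdown against the control.

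**Figure D4:**
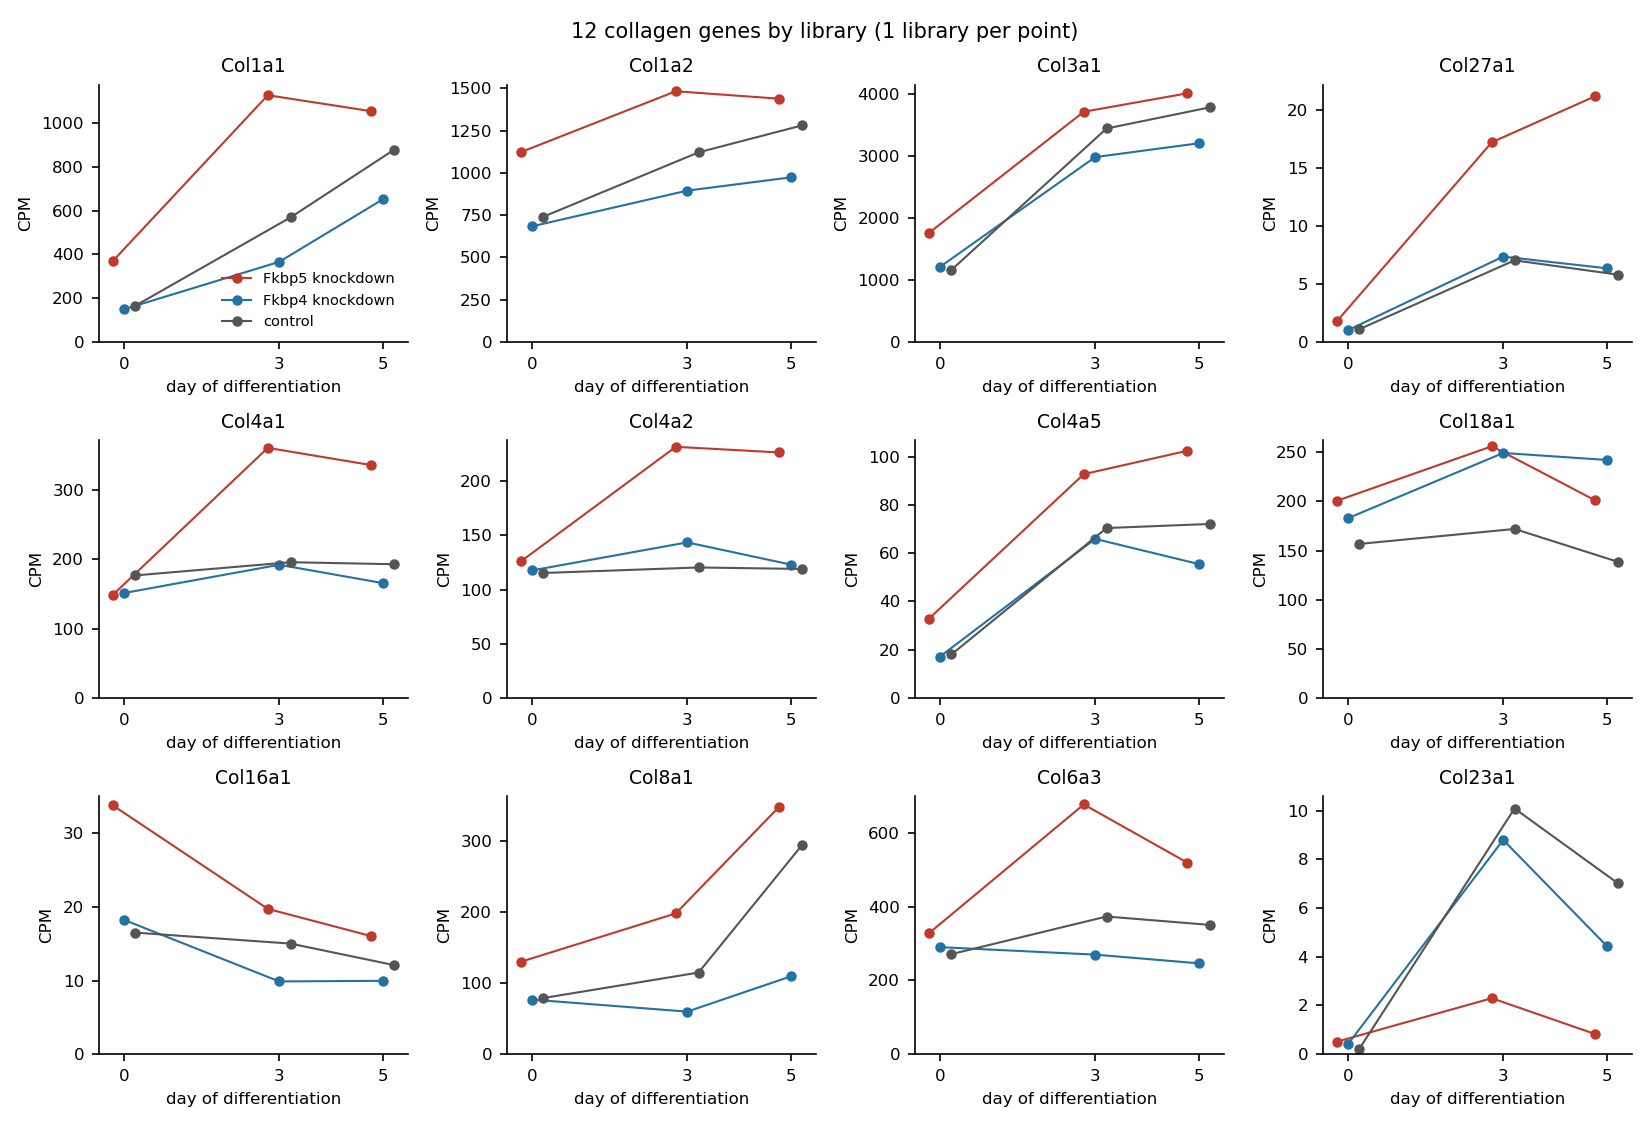
CPM (y axis, linear from 0) by day of differentiation (x axis, points shifted sideways by genotype) for 12 members named in the text; each point is 1 library. Col1a1 and Col4a5 of the Fkbp5 knockdown lie above both other genotypes on each day, Col4a1 and Col4a2 lie furthest above the others at days 3 and 5, and Col23a1 stays at or under 2.3 CPM in the Fkbp5 knockdown.

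The chains of 1 trimer did not keep a fixed ratio. Reads per kb of the longest coding transcript gave a Col1a1 to Col1a2 ratio of 0.297, 0.685 and 0.661 in the Fkbp5 knockdown, 0.198, 0.369 and 0.603 in the Fkbp4 knockdown and 0.202, 0.458 and 0.618 in control cells at days 0, 3 and 5. The type I protein holds more of the Col1a1 chain, and every mRNA ratio was below 1 on this length; on the exon union, which is much longer for Col1a2, the same ratios ran between 0.416 and 1.44. With either length the ratio was lowest at day 0 in each genotype, and highest among genotypes in the Fkbp5 knockdown on each day. Col4a1 to Col4a2 stood at 1.15, 1.52 and 1.45 in the Fkbp5 knockdown, 1.25, 1.3 and 1.31 in the Fkbp4 knockdown and 1.49, 1.58 and 1.58 in control cells. Control cells had the highest ratio on each day.

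Within type VI collagen, whose trimer takes 1 of each chain, Col6a1 to Col6a2 stood at 1.99, 1.33 and 1.48 in the Fkbp5 knockdown, 2.85, 1.28 and 1.46 in the Fkbp4 knockdown and 2.33, 1.27 and 1.32 in control cells. It was nearer to 1 at the later days in each genotype. Col6a3 to Col6a1 stood at 0.813, 0.564 and 0.486 in the Fkbp5 knockdown, 0.966, 0.367 and 0.29 in the Fkbp4 knockdown and 0.818, 0.328 and 0.301 in control cells. It was lower at the later days in each genotype, and at days 3 and 5 its ratio was highest in the Fkbp5 knockdown. Col5a1 to Col5a2 lay between 0.662 and 1.28 and was lowest at day 0 in each genotype. These ratios are descriptions of single libraries.

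**Figure D5:**
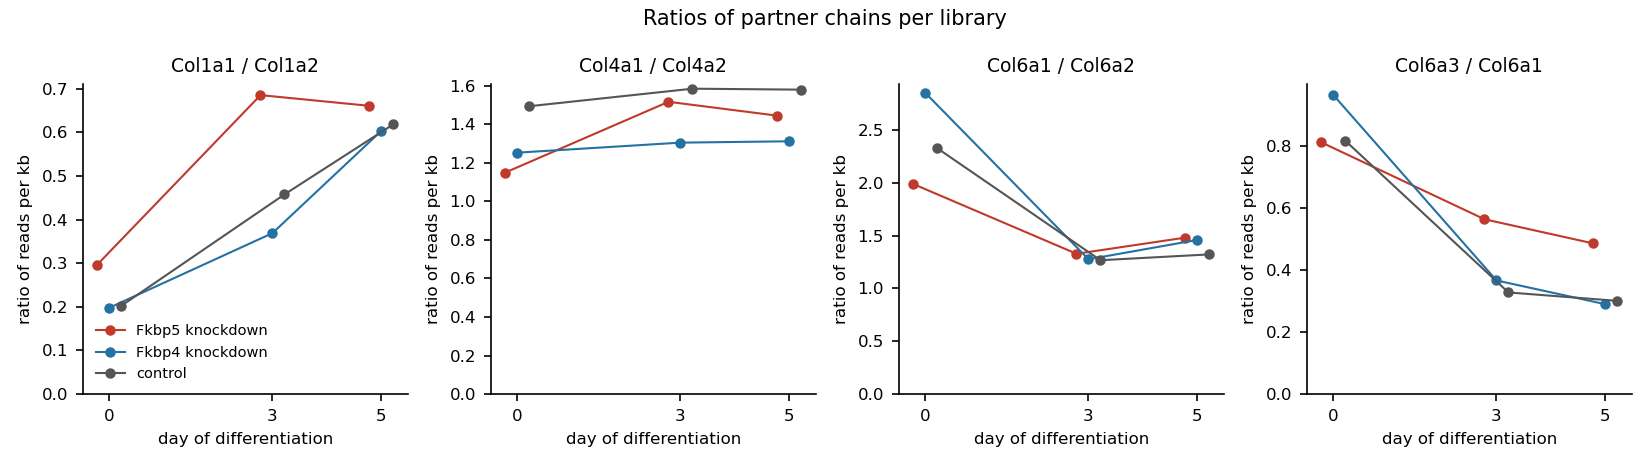
Ratio of reads per kb of the longest coding transcript for 4 pairs of partner chains (y axis, linear from 0) by day of differentiation (x axis, points shifted sideways by genotype); each point is 1 library. Col1a1 to Col1a2 is lowest at day 0 in each genotype, Col4a1 to Col4a2 stays within 1.15 to 1.58, and Col6a3 to Col6a1 is lower at days 3 and 5 than at day 0.

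Whether a knockdown difference changed between day 0 and the later days was asked with an interaction term, for which days 3 and 5 were the only repeats. In edgeR, 0 of 27 tested members were called for either knockdown against the control, where 0.0374% of all 13372 tested genes were called in each; 7 members had an unadjusted p under 0.05 for the Fkbp5 knockdown and 4 for the Fkbp4 knockdown, and DESeq2 and limma voom called 0. Between the knockdowns 0 of 27 were called as well, against 0.0299% of all tested genes, with 7 at an unadjusted p under 0.05. For these unadjusted counts the share of all tested genes is not given here. The log2 estimates for the type IV pair were 1.06 (SE 0.20, edgeR adjusted p = 0.417) for Col4a1 and 0.78 (SE 0.21, adjusted p = 0.962) for Col4a2, in the Fkbp5 knockdown against the control at days 3 and 5 relative to day 0. For Col8a1 in the Fkbp4 knockdown it was -1.10 (SE 0.25, adjusted p = 0.807). None of these passed the threshold; the fit has 2 residual degrees of freedom.

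The 6 members not tested over the 3 days (Col14a1, Col9a3, Col4a6, Col11a1, Col10a1 and Col13a1) held 25 to 40 reads each. Col13a1, a transmembrane chain of the neuromuscular junction, had 0, 0 and 0 reads in the Fkbp5 knockdown, 0, 3 and 10 reads in the Fkbp4 knockdown and 0, 4 and 8 reads in control cells. The Fkbp5 knockdown had 0 reads on each day; at day 5 the exact 95% interval of its log2 ratio ended at -1.21 against the Fkbp4 knockdown and at -1.01 against the control, for counting error only. Col10a1, known from hypertrophic cartilage, had 0, 1 and 7 reads in the Fkbp5 knockdown, 1, 2 and 4 reads in the Fkbp4 knockdown and 1, 1 and 10 reads in control cells, with its highest value at day 5 in each genotype. Col9a3 had 0, 9 and 7 reads in the Fkbp5 knockdown, 2, 4 and 16 reads in the Fkbp4 knockdown and 1, 1 and 0 reads in control cells. Col11a1 had 0, 3 and 11 reads in the Fkbp5 knockdown, 3, 0 and 1 reads in the Fkbp4 knockdown and 4, 2 and 5 reads in control cells. Col14a1 held 1 to 9 reads in each library.

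Genes that make, bind and break down collagen were listed beside the members. Of 30 tested biosynthesis and crosslinking genes, 3 were higher in the Fkbp5 knockdown than in control cells, beside 0.685% of all tested genes: P4ha1 and P4ha2, subunits of the prolyl 4-hydroxylases (log2 fold changes 0.57 and 0.53, adjusted p = 0.0298 and 0.0473), and Loxl4, a lysyl oxidase relative (1.15, adjusted p = 0.0383). None of 30 was called in the Fkbp4 knockdown against the control. In the Fkbp5 against the Fkbp4 knockdown 15 of 30 were higher and 0 lower, beside 6.83% of all tested genes higher and 6.02% lower, with a median log2 fold change of 0.35. They include the lysyl hydroxylases Plod1, Plod2 and Plod3, the procollagen N-proteinase Adamts2 (0.94), the C-proteinase Bmp1 (0.44) and its enhancer Pcolce (0.42), and the collagen-binding glycoprotein Sparc (0.74). Fkbp10, an FK506-binding protein of the endoplasmic reticulum that acts on procollagen, had 169.6, 160.2 and 156 CPM in the Fkbp5 knockdown, 130.2, 112 and 124 CPM in the Fkbp4 knockdown and 153, 129 and 141 CPM in control cells. It was higher in the Fkbp5 than in the Fkbp4 knockdown on each day (log2 fold change between the knockdowns 0.48, SE 0.08, adjusted p = 0.00609). The collagen chaperone Serpinh1 did not pass the threshold in any genotype comparison (log2 fold change 0.25 between the knockdowns, 0.13 and -0.12 for the Fkbp5 and the Fkbp4 knockdown against the control), nor did Lox (0.57, 0.10 and -0.47 in the same order).

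Receptors, degradation genes and basement membrane partners held fewer calls. In the Fkbp5 against the Fkbp4 knockdown, 2 of 8 receptors, 1 of 11 degradation genes and 3 of 13 partners were higher and 3 degradation genes lower, read against the same 6.83 and 6.02%. Against the control, neither knockdown had a called gene among 8 tested receptors, 11 degradation genes and 13 basement membrane partners. Between the knockdowns, the collagen receptors Itga11 (log2 fold change 2.41) and Mrc2 (0.89, an endocytic receptor) were higher. Of the degradation list Timp3, a metalloproteinase inhibitor, was higher (0.50), and Mmp15, Timp2 and Prep were lower (-1.39, -0.52 and -0.32). The partners that were higher include the laminin chain Lama5 (0.40) and the type IV crosslinking enzyme Pxdn (0.75).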

How the data were processed

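For each library the authors deposited 1 table of unnormalized counts, listed by Ensembl gene identifier. Per the submitters' processing notes, CASAVA 1.8, HISAT2 2.0.2, Subread and featureCounts 1.4.6 were used with the build mm10. The annotation release, the strand setting and the handling of reads with several alignments are not given in the sources used here. Per the labels, libraries were made from polyA RNA with the TruSeq RNA v2 kit, which does not mark strand.

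Of 47728 listed genes, 47309 matched GENCODE M21 (GRCm38); the 419 others held at most 0.0188% of a library. CPM are counts scaled to a common library total. Counts were fitted with edgeR 4.0.16 in R 4.3.3 (filterByExpr, TMM factors 0.942 to 1.037, quasi-likelihood, genotype plus day, 4 residual degrees of freedom, common biological variation 0.126) over 12844 genes, with Benjamini-Hochberg adjustment over all of them, two-sided. Standard errors are the log2 fold change over the root of the quasi-likelihood F. The interaction fit covered 13372 genes with 2 residual degrees of freedom; the contrast between the knockdowns in it and the miR-29 word search were chosen after the data were seen. The low-count filter left 24 of 30 members, 27 in the interaction fit. The fit was tested on simulated counts drawn independently for each library, with a common spread and genotype changes equal on all days. That simulation cannot show whether days can stand in for replicates. Same-day ratios carry exact 95% intervals for 2 counts, from scipy 1.17.1. Alternatives used DESeq2 1.42.0 and limma 3.58.1.

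The members, lists and comparisons were chosen with earlier results of these data known. Any collagen of the rule could be named, and those called in a comparison are given with their value in every library. Of other genes, the rule allowed the targets, Fkbp10, Serpinh1, Lox and the genes of the biosynthesis, receptor, degradation and basement membrane partner lists that were called in a genotype comparison; cell type markers form separate lists.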

Additional observations from a re-analysis of the deposited data

Results flagged for a closer look

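For 4 members, both later days lay above day 0 in 1 genotype and below it in another. The log2 changes from day 0, at days 3 and 5, of Col12a1 were 1.30 and 1.45 in Fkbp5 knockdown cells and -1.74 and -0.27 in Fkbp4 knockdown cells. Those of Col6a3 were 1.05 and 0.67 in Fkbp5 knockdown cells, -0.10 and -0.24 in Fkbp4 knockdown cells and 0.46 and 0.37 in control cells. The difference between the knockdowns at days 3 and 5 against day 0 was 2.27 (SE 0.53) for Col12a1 and 0.94 (SE 0.21) for Col6a3, with edgeR adjusted p = 0.474 and 0.453. Those of Col4a6, at 0 to 6 reads per library, were 0.44 and 1.28 in Fkbp5 knockdown cells and -0.93 and -1.88 in control cells, and its CPM differed from day 0 by 0.718 and 0.636 in Fkbp4 knockdown cells; it did not pass the low-count filter and the difference was not tested. The CPM of Col11a1, at 0 to 11 reads per library, differed from day 0 by 0.689 and 2.26 in Fkbp5 knockdown cells and by -0.622 and -0.41 in Fkbp4 knockdown cells, where libraries with 0 reads give no ratio; the test between the knockdowns gave an edgeR adjusted p = 0.698.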

How the results depend on the processing

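None of the 19 calls of members in the genotype comparisons changed direction under the alternatives run. Counts of called members stayed within 1.5 times for day 3 (19) and day 5 (18) against day 0 under RLE scaling, library totals, no filter, DESeq2, limma voom, 1 day left out, scaling without mitochondrial or collagen genes, and a minimum of 100 reads. The Fkbp5 knockdown against the control (6) gave 3 with library totals alone, 12 with no low-count filter, 0 with no day term, 0 without day 3 and 1 without day 5. The Fkbp4 knockdown against the control (0) gave 7 with no filter, 4 with DESeq2, 1 without day 0 and 2 with 2 genotypes only. The Fkbp5 against the Fkbp4 knockdown (13) gave 0 with no day term, 6 without day 3 and 4 without day 5. Day 5 against day 3 (3) gave 6 with no filter. The interactions (0) gave 2 for the Fkbp5 and 1 for the Fkbp4 knockdown with no filter. Shares of all genes are not given here for the alternatives or leave-outs. A change in the members is therefore not told apart from a change in all genes. The cause was not tested, except that leaving out a day or a library leaves fewer samples. Leaving out 1 library at a time gave 0 to 8 for the Fkbp5 knockdown against the control, 0 to 2 for the Fkbp4 knockdown against the control, 6 to 13 between the knockdowns, 0 to 5 for day 5 against day 3, and 0 to 1 for the Fkbp5 interaction. The interaction could not be fitted without a day 0 library or without a whole day. Low counts limit Col23a1, Col27a1, the receptor gene Itga11 and the untested members. The labels give no replicate numbers; the day term of the fit compares the genotypes within each day.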
